A study of Homo sapiens with 6 samples.

Results

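Ferritin and iron handling was described here through 10 genes, chosen by symbol from the 26899 genes of the counts table: FTH1, FTL, TFRC, ACO1, IREB2, NCOA4, HFE, STEAP3, PCBP1 and PCBP2. The genes were picked by their known function in iron handling, with earlier results of these data known, among them the high read share of FTH1. That share is a description and was not tested. Which other values were in view is not recorded, so the p-values of the 10 genes do not come from a choice blind to these data. All 10 genes were in the table and all 10 passed the filter on low counts. They were read in polyadenylated RNA of HK-2 cells, a widely used human line from the proximal tubule of the kidney, transformed with genes of human papillomavirus 16. In order to compare cells with and without reduced ANXA2, a gene for a calcium-dependent membrane-binding protein, 3 libraries labelled control and 3 libraries labelled knockdown were sequenced. The control samples were titled wild type and described as shCtrl, and the knockdown samples were described as shANXA2. Per the labels, all cells were grown in the same serum-containing medium and plasmids were delivered by lipid transfection, and no iron salt, chelator or haem was named. Nothing in the labels says whether the 3 libraries of a group came from separate cultures, so p-values measure only the spread between these libraries, which may be technical.

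Cells store iron in ferritin, a hollow shell built from heavy chains (FTH1) and light chains (FTL), and take it up from transferrin through the transferrin receptor (TFRC). Iron regulatory proteins (IRPs) bind a hairpin in messenger RNA, the iron-responsive element (IRE), when free iron is scarce. Bound near the start of the ferritin messages they block translation, and bound behind the stop codon of TFRC they protect the message from decay. An IRP response to more iron would therefore lower TFRC RNA and raise ferritin protein, without having to alter the amount of ferritin RNA. Ferritin RNA is also controlled by transcription, for which NRF2 and NF-kB are known regulators. Read counts measure RNA and not its translation.

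The IREs are shown because they set which of the 10 messages the IRPs can bind. The hairpin was searched as a C, 5 bases, the loop CAGTGN, and 5 bases able to pair with the 5 before the loop, G-U pairs included, on the sense strand of GENCODE release 44 transcripts. The 6 capitals mark the loop, each line runs 5′ to 3′, and coordinates are on GRCh38.
FTH1, 5′ UTR, chr11:61967574-61967601, minus strand: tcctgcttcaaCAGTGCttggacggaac
FTL, 5′ UTR, chr19:48965336-48965363, plus strand: tcttgcttcaaCAGTGTttggacggaac
TFRC, 3′ UTR, chr3:196050979-196051006, minus strand: attatcggaagCAGTGCcttccataatt
TFRC, 3′ UTR, chr3:196050575-196050602, minus strand: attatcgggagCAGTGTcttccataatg
TFRC, 3′ UTR, chr3:196050510-196050537, minus strand: tgtatcggagaCAGTGAtctccatatgt
TFRC, 3′ UTR, chr3:196050463-196050490, minus strand: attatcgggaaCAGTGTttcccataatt

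The printed FTH1 window, 28 bases around the hairpin, began at base 34 of the transcript and ended 148 bases before the start codon, and that of FTL began at base 28 and ended 144 bases before it. The gene FTH1 spans chr11:61959718-61967634 and FTL chr19:48965309-48966879, each in 4 exons, and TFRC spans chr3:196012511-196082153 in 19 exons. The TFRC windows began 935, 1339, 1404 and 1451 bases after the stop codon. Of the 10 genes, 3 held a match. Among 20046 canonical protein-coding transcripts, 262 (1.307%) held one, 19 (0.095%) of them in the 5′ UTR and 123 (0.614%) in the 3′ UTR. A match describes letters and is not a measured binding site. Hairpins with another loop or imperfect pairing were not searched, so these matches may not be all the IREs of the 10 genes.

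Library depth ran from 24231267 to 34561675 reads, and 18861 to 21819 genes had reads in a library. No reduction of the targeted gene was detected under the knockdown label. ANXA2 was at 1658, 1461 and 1675 CPM in the libraries labelled control and at 1538, 1561 and 1519 CPM in those labelled knockdown. CPM here means the reads of a gene relative to library depth (counts per 1e6 reads) after TMM scaling between libraries. The ranges overlapped, and the log2 fold change, knockdown label over control label as everywhere below, was -0.05 (SE 0.075, edgeR quasi-likelihood test, Benjamini-Hochberg adjusted p = 0.848). All directions below are therefore differences between labels. Of the tubule markers, LRP2 and AQP1 averaged at most 0.0391 CPM in either group, CUBN at most 0.218 CPM, and GGT1 was at 229.6 and 248.0 CPM in the control and knockdown groups. The epithelial keratin KRT8 averaged 1099 and 1223 CPM. In the same group order, KRT18 averaged 553.5 and 558.2 CPM, KRT19 139.8 and 141.8 CPM, and EPCAM 62.4 and 60.79 CPM. VIM averaged 2102 and 1988 CPM, above KRT8, and the cadherin CDH1 only 0.1012 and 0.3521 CPM. The libraries thus held epithelial keratins beside abundant VIM and almost no CDH1. Most defining transporters and receptors of the native tubule were near 0. The summed level of 5 leukocyte markers was 3.335 to 5.746 CPM under the control label and 4.225 to 7.147 CPM under the knockdown label. The summed level of 4 erythroid markers was at most 0.861 CPM in any library.

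Both ferritin chains were higher in every library labelled knockdown, the heavy chain by a fold of 1.364 and the light chain by 1.306, while the receptor TFRC had overlapping groups. The cargo receptor NCOA4 was lower in every library labelled knockdown. The other 6 genes differed by an estimated 0.24 or less on the log2 scale. No gene of the table passed the adjusted threshold of 0.05 in the edgeR test, 0% of the 15299 tested, and so none of the 10 did. At an unadjusted p of 0.05 the 10 genes gave 3 (FTH1, FTL and NCOA4), where 8.18% of all tested genes did. For higher levels alone the numbers were 2 of 10 and 3.86% of tested genes. The libraries of the labels stood wholly apart for 5 of the 10 (FTH1, FTL and PCBP1 higher, IREB2 and NCOA4 lower), against 15.6% of tested genes, and for 3 of 10 in the higher direction, against 7.94%. The median log2 fold change of the 10 was 0.10 and that of all tested genes was -0.006. Because earlier results of this contrast were known when the genes were listed, these counts are a description and nothing was read from them about the group.

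**Figure D1:**
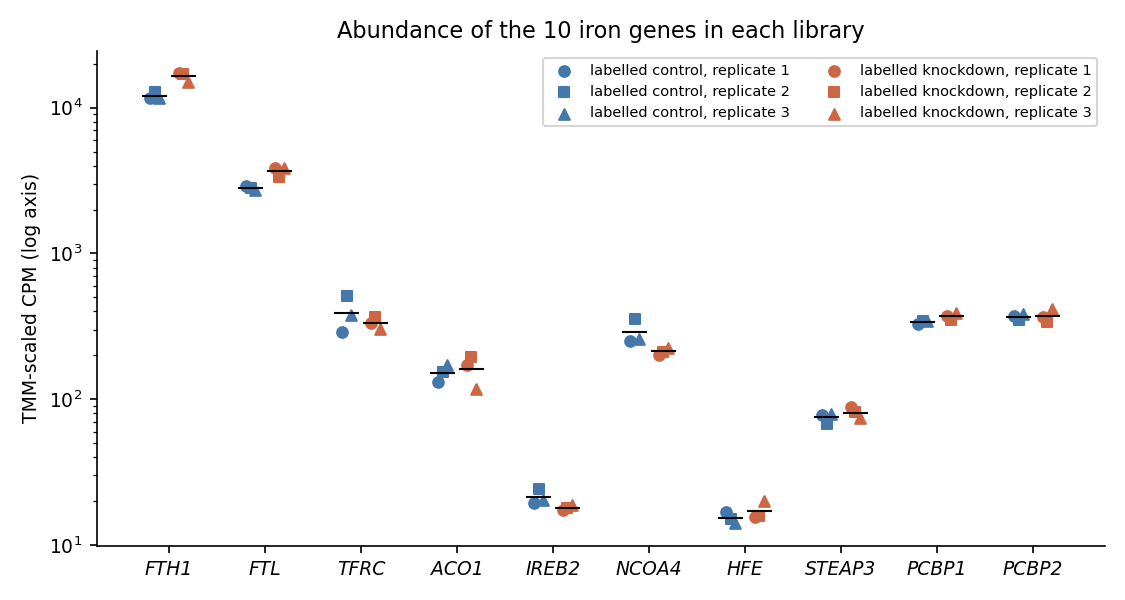
Level of each of the 10 genes in each library, as TMM-scaled CPM on a shared log axis, with points for the 3 libraries of each label and a line at their mean. FTH1, FTL and PCBP1 lie higher and NCOA4 and IREB2 lower in every library labelled knockdown, and the other 5 genes overlap.

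FTH1, the heavy chain that carries the ferroxidase site of ferritin, took more reads than any other gene in each of the 6 libraries. Its share of reads was 1.17%, 1.3% and 1.17% in control replicates 1, 2 and 3 and 1.7%, 1.67% and 1.5% in knockdown replicates 1, 2 and 3. Scaled for transcript length as FPKM, it ranked 6, 1 and 3 in the control libraries and 1 in each knockdown library. Its first place by reads was thus not kept per length in control replicates 1 and 3.

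In CPM, FTH1 was at 11620, 12700 and 11700 in the libraries labelled control and at 17210, 16960 and 14970 in those labelled knockdown. The lowest knockdown library lay above the highest control library. The means were 12010 ± 602 and 16380 ± 1230 CPM (SD, n = 3), and the log2 fold change was 0.45 (SE 0.0673, 95% interval 0.30 to 0.60). The unadjusted edgeR p of 8.327e-05 was the 8th smallest of all genes and its Benjamini-Hochberg adjusted p was 0.159. The exact two-sided permutation p was 0.1, the smallest that 3 against 3 libraries allow. FTH1 passed the adjusted threshold under 2 of the 17 alternatives. These were the DESeq2 test (adjusted p = 0.0486, where 0.188% of genes passed) and edgeR without the filter on low counts (adjusted p = 9.632e-07, where 0.613% passed). The unfiltered fit used an infinite prior degrees of freedom in place of 5.234. Under the other alternatives it did not pass, with an edgeR adjusted p of 0.988 without knockdown replicate 1. The limma test on log2(FPKM + 0.1) gave an unadjusted p of 0.0716.

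FTL, the light chain that favours mineral formation inside the shell, was at 2895, 2820 and 2733 CPM under the control label. Under the knockdown label it was at 3841, 3340 and 3850 CPM, with replicate 2 the lowest but still above all control libraries. The means were 2816 ± 81.2 and 3677 ± 291 CPM (SD, n = 3). The log2 fold change was 0.39 (SE 0.0731, interval 0.22 to 0.55), and its edgeR Benjamini-Hochberg adjusted p was 0.419 (unadjusted rank 16 of all genes, exact permutation p = 0.1). Of the alternatives run, FTL passed the threshold only without the filter on low counts, at an adjusted p of 0.003345, and not in DESeq2, at 0.151.

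Since these are very abundant messages, the abundant genes were given beside them. Of 127 genes above 1000 CPM on average, 65.4% had a positive estimate and their median log2 fold change was 0.07. Among them FTH1 had the highest estimate and FTL the next, and 18 of the 127 had knockdown libraries all above the control libraries. With an offset for transcript length, added after seeing the data, the estimates were 0.38 for FTH1 and 0.29 for FTL, and with one for GC content 0.43 and 0.30. The direction stayed the same under both offsets.

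The proportion of the chains overlapped between labels. The log2 ratio of FTH1 to FTL reads was 2.005, 2.171 and 2.099 in the control libraries and 2.164, 2.344 and 1.959 in the knockdown libraries. These ranges overlapped, and the mean difference of 0.064 was below the SD of either group (0.0834 in control, 0.193 in knockdown). With 1 library left out it was 0.021 (without control replicate 1), 0.104 (without control replicate 2), -0.03 (without knockdown replicate 2) and 0.162 (without knockdown replicate 3). Per length, as the quotient of deposited FPKM values, there were 2.317 ± 0.133 heavy-chain messages for each light-chain message under the control label and 2.434 ± 0.323 under the knockdown label (SD, n = 3). Such ratios do not depend on scaling between libraries.

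Ferritin genes have many processed pseudogenes, and reads can be assigned between a gene and its copies. Of the 100-base windows of the FTH1 transcript, 228 of 1104 (20.7%) also occurred in 8 pseudogenes, and of those of FTL 26 of 772 (3.37%) occurred in FTLP3. The 14 FTH1 pseudogenes in the table held 247, 375 and 261 reads in the control libraries and 537, 308 and 608 in the knockdown libraries. That was 0.055% to 0.141% of the FTH1 reads of the same library. FTH1P10 held most of them, with 179, 288 and 206 reads against 451, 221 and 526, and its groups overlapped (log2 fold change 0.74, edgeR Benjamini-Hochberg adjusted p = 0.608). The other FTH1 pseudogenes with at least 10 reads were FTH1P2, FTH1P20, FTH1P8, FTH1P3, FTH1P11, FTH1P7, FTH1P16, FTH1P19 and FTH1P23, from 138 reads down to 11 over the 6 libraries, and FTLP3 held 26. The reads counted on pseudogenes were thus few beside those counted on FTH1. How the authors' counting treated reads that match several places is not known here.

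TFRC, the receptor that brings transferrin-bound iron into the cell, was at 287.7, 508.4 and 380.7 CPM in the libraries labelled control and at 334.5, 368.5 and 301.6 CPM in those labelled knockdown. Control replicate 2 was the highest and control replicate 1 the lowest of all 6, so the knockdown libraries lay inside the control range. The log2 fold change was -0.23 (SE 0.181, interval -0.64 to 0.18, edgeR, Benjamini-Hochberg adjusted p = 0.727, exact permutation p = 0.6). Without control replicate 2 the estimate was 0.004, without control replicate 1 it was -0.41, and with the GC offset it was -0.07. The interval covers falls to a fold of 0.643 and rises to 1.133, so these libraries did not settle the direction.

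**Figure D2:**
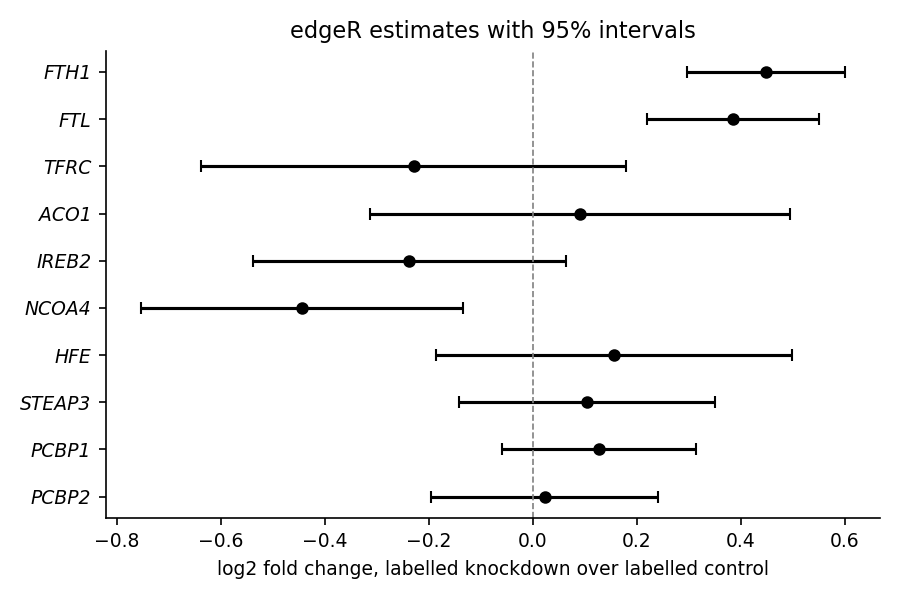
Log2 fold change, knockdown label over control label, of the 10 genes from the edgeR fit over all genes, with 95% intervals. The intervals of FTH1 and FTL lie above 0 and that of NCOA4 lies below 0, and the other 7 cross 0, before any adjustment for the number of genes tested.

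Set against TFRC inside each library, FTH1 separated the labels. The log2 ratio of FTH1 to TFRC reads was 5.336, 4.643 and 4.942 under the control label and 5.685, 5.524 and 5.633 under the knockdown label, with means of 4.974 ± 0.348 and 5.614 ± 0.0822 (SD, n = 3). Every knockdown library was above every control library, as for FTH1 alone. The mean difference was 0.641, and 0.475 without control replicate 2. The log2 ratio of FTL to TFRC was 3.331, 2.472 and 2.844 against 3.521, 3.18 and 3.674, and here control replicate 1 lay above knockdown replicate 2. The mean difference was 0.577, and 0.371 without control replicate 2. Between control libraries the FTH1 to TFRC ratio varied mainly with TFRC, which spanned 287.7 to 508.4 CPM there. The 3 genes thus read as ferritin RNA higher in each knockdown library, by estimates of 0.45 and 0.39, beside a TFRC estimate whose sign turned without control replicate 2. Whether translation or iron content differed was not measured.

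**Figure D3:**
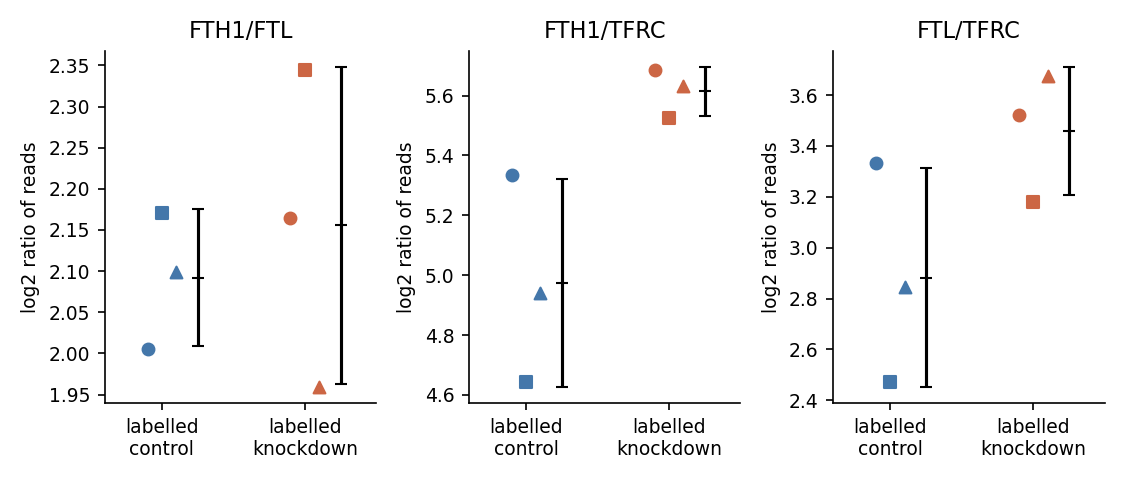
Log2 ratios of reads within each library for FTH1 to FTL, FTH1 to TFRC and FTL to TFRC; circles, squares and triangles stand for replicates 1, 2 and 3 and bars for the mean ± SD of 3 libraries per label. The FTH1 to TFRC ratio separates the labels by 0.641 on average, while the other ratios overlap.

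The IRPs themselves are ACO1, also the cytosolic aconitase when it holds an iron-sulphur cluster, and IREB2, which is degraded when iron is ample. ACO1 was at 130.3, 153.9 and 172.2 CPM under the control label and at 172.6, 195.3 and 118.3 CPM under the knockdown label. Knockdown libraries were both the highest and the lowest, and the log2 fold change of 0.09 had an interval from -0.31 to 0.50 (edgeR, Benjamini-Hochberg adjusted p = 0.899). It was -0.06 without knockdown replicate 2 and -0.007 without control replicate 1.

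IREB2 was at 19.35, 24.2 and 20.22 CPM against 17.38, 18.05 and 18.74 CPM. Control replicate 1 and knockdown replicate 3 were the nearest libraries of groups that did not overlap, and the log2 fold change was -0.24 with an interval from -0.54 to 0.065 (edgeR, Benjamini-Hochberg adjusted p = 0.643). It was -0.13 without control replicate 2, the highest library, and -0.08 with the GC offset. Per length, ACO1 was the more abundant IRP message, at 19.62 FPKM over all libraries against 1.957 FPKM for IREB2.

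NCOA4 carries ferritin to the lysosome, where its iron is released. It was at 251.2, 357.7 and 260.1 CPM in the libraries labelled control and at 201.3, 212.4 and 225.5 CPM in those labelled knockdown. All 3 knockdown libraries were lower than all 3 control libraries, and control replicate 2 stood above the other two. The means were 289.6 ± 59.1 and 213.1 ± 12.1 CPM (SD, n = 3), and the log2 fold change was -0.44 (SE 0.137, interval -0.75 to -0.13, edgeR, unadjusted rank 243, Benjamini-Hochberg adjusted p = 0.599, exact permutation p = 0.1). Without control replicate 2 it was -0.26, and without the filter on low counts its adjusted p was 0.02495. Control replicate 2 was also the highest library for TFRC and IREB2, and its part in these 3 estimates is given by the values without it.

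HFE, a membrane protein that binds the transferrin receptor, was at 16.73, 15.17 and 14.12 CPM against 15.62, 15.75 and 19.95 CPM. STEAP3, the reductase that acts on iron inside the endosome, was at 78.55, 68.04 and 79.39 CPM against 87.74, 81.31 and 73.88 CPM. Both genes overlapped between labels, with log2 fold changes of 0.16 (interval -0.19 to 0.50) and 0.10 (interval -0.14 to 0.35). Their edgeR Benjamini-Hochberg adjusted p-values were 0.777 and 0.796. HFE was at 0.034 without knockdown replicate 3, 0.102 without control replicate 3 and 0.254 with the GC offset. STEAP3 was at 0.038 without control replicate 2, 0.045 without knockdown replicate 1, 0.168 without knockdown replicate 3 and 0.018 with the GC offset.

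PCBP1 and PCBP2 are RNA-binding proteins that also deliver iron to ferritin. PCBP1 was at 330.4, 345.4 and 345.2 CPM against 374.1, 348.6 and 392.4 CPM, so that the groups stood apart, narrowly, between control replicate 2 and knockdown replicate 2. Its log2 fold change was 0.13 with an interval from -0.059 to 0.31 (edgeR, Benjamini-Hochberg adjusted p = 0.684). With the length offset it was 0.06 and with the GC offset 0.05. The antisense gene PCBP1-AS1 covers all 1727 bases of PCBP1, and the strand setting of the counting is not known here. Genes on the opposite strand also overlap the spans of FTH1 (BEST1, 5798 bases), HFE (H2BC4, 11063 bases) and STEAP3 (STEAP3-AS1, 21231 bases), introns included, and unnamed noncoding genes those of TFRC, IREB2 and NCOA4. PCBP2 was at 375, 349.2 and 381.9 CPM against 368.8, 339 and 415.9 CPM, with a log2 fold change of 0.02 (interval -0.20 to 0.24).

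The PCBP2 value is uncertain because another gene on the same strand, RP11-793H13.8, shares 15427 bases of its span, and 821 of 3060 (26.8%) windows of the PCBP2 transcript also occurred in that gene or in PCBP2P2. That gene held more reads than PCBP2 in every library, 14005 to 19758 against 9148 to 12585. Its log2 fold change was 0.05 (edgeR, Benjamini-Hochberg adjusted p = 0.872). The interval of neither gene excluded 0.

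Per length, averaged over all 6 libraries, the order of levels was FTH1 at 8278 FPKM, FTL at 3488, PCBP1 at 192, PCBP2 at 110.6, TFRC at 64.55, NCOA4 at 58.26, ACO1 at 19.62, STEAP3 at 16.16, HFE at 2.86 and IREB2 at 1.957. FTH1 ranked 1 and FTL 13 among all genes by that mean, and IREB2 ranked 9575. Neighbours in this order were compared by whether their ranges of mean ± SD overlapped. Those of TFRC and NCOA4 did under the control label (70.05 ± 20.5 and 67.46 ± 14.5 FPKM, SD, n = 3) but not under the knockdown label (59.05 ± 5.56 and 49.07 ± 3.13). Those of ACO1 and STEAP3 did under both labels (19.11 ± 2.71 and 15.65 ± 1.18, then 20.12 ± 4.8 and 16.66 ± 1.32). The ranges of the other neighbours did not overlap under either label.

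The genes whose log2 CPM followed FTH1 most closely over the 6 libraries, among 6821 genes of at least 20 CPM, were UNC45A, MIR4435-2HG and RIT1 (Pearson r of 0.9953, 0.982 and 0.9796). For FTL they were CLN3, TMEM222 and MLPH (r of 0.9859, 0.9841 and 0.9777), and for TFRC they were SMC4, DNAJC10 and UBE2E3 (r of 0.9947, 0.9946 and 0.9941). These are the highest of 6821 values over 6 points that share labels and depth, and are a description only.

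Further iron genes were taken from 6 lists, 81 genes in all, of which 76 were in the table and 66 were tested. Of the 66, 39 had higher and 27 lower estimates, with a median of 0.04, and none passed the adjusted threshold in edgeR. At an unadjusted p of 0.05 there were 7 (10.6%), beside 8.18% of all tested genes, and 10 (15.2%) had groups that did not overlap, beside 15.6%. The wider iron genes were thus near the background of the table by both counts.

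Of 11 tested genes for iron uptake and release, 7 had higher and 4 lower estimates. SLC39A8, a zinc and iron importer, had the smallest p of the list and was at 35.26, 59.14 and 38.46 CPM against 29.66, 30.53 and 31.59 CPM, lower in every knockdown library, with control replicate 2 again the highest. Its log2 fold change was -0.54 (SE 0.185, edgeR, Benjamini-Hochberg adjusted p = 0.599). SLC40A1, the iron exporter ferroportin (chosen after its values were seen), averaged only 4.304 and 3.311 CPM. Of 5 tested systemic regulators 1 was higher and 4 were lower, and BMPR1A, a receptor of the hepcidin pathway, had the smallest p with means of 21.92 and 17.02 CPM (log2 fold change -0.37, adjusted p = 0.610).

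The 9 tested genes of IRP and ferritin turnover had 4 higher and 5 lower estimates and none at an unadjusted p of 0.05. FBXL5, the iron-sensing subunit that marks IREB2 for degradation, had the smallest p there, with means of 33.13 and 28.12 CPM and a log2 fold change of -0.24 (edgeR, Benjamini-Hochberg adjusted p = 0.684). Among 20 mitochondrial and iron-sulphur cluster genes, 14 were higher and 6 lower. GLRX5, a glutaredoxin that passes on iron-sulphur clusters, was at 53.21, 45.58 and 46.29 CPM against 34.14, 36.83 and 40.77 CPM, lower in every knockdown library, with a log2 fold change of -0.38 (adjusted p = 0.599).

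Of 17 tested haem genes 11 were higher and 6 lower. The haem exporter FLVCR1 was at 22.96, 22.3 and 24.08 CPM against 16.03, 18.99 and 17.87 CPM, without overlap, with a log2 fold change of -0.39 (edgeR, Benjamini-Hochberg adjusted p = 0.599). HMOX1, the haem oxygenase that frees iron from haem (chosen after its values were seen), was at 55.83, 59.23 and 58.46 CPM against 77.33, 56.69 and 109.2 CPM, so knockdown replicate 2 lay within the control range (log2 fold change 0.49, adjusted p = 0.605). The list of other IRE messages gave 3 higher and 3 lower estimates of 6 tested. It included SLC11A2 and SLC40A1, which were also counted under iron uptake and release. EPAS1, a hypoxia-inducible factor with an IRE in its 5′ UTR, had the smallest p. Its means were 264.4 and 321.3 CPM (log2 fold change 0.28, edgeR adjusted p = 0.676).

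**Figure D4:**
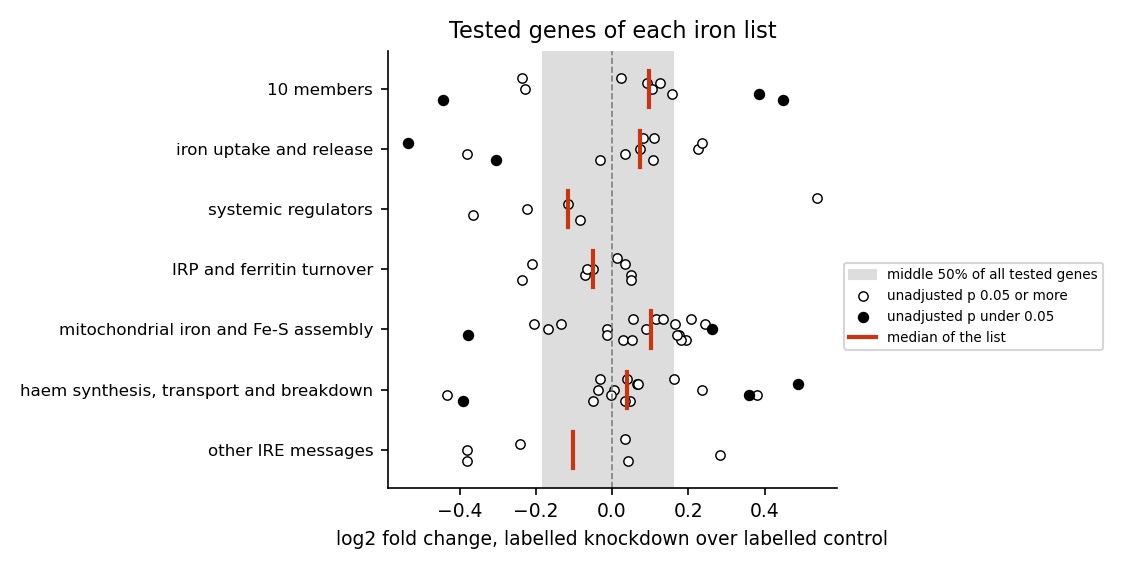
Log2 fold change, knockdown label over control label, of each tested gene in the 10-gene group and in the 6 wider iron lists. Each list has 1 point per gene, so SLC11A2 and SLC40A1, held by more than 1 list, are drawn in each. The 66 wider genes lie on both sides of 0 with a median of 0.04, and none passed the adjusted threshold.

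Known transcriptional regulators of ferritin were followed through their target lists. These lists were chosen with earlier results of these data known, so their counts are a description. Of 12 NRF2 targets 6 had higher and 6 lower estimates with a median of -0.007. At an unadjusted edgeR p of 0.05, 2 were higher (NQO1 and HMOX1) and 0 lower, where 3.86% of all tested genes were higher. NQO1, which had the smallest p, was at 352.2, 279.6 and 329.5 CPM against 381, 346.3 and 488.3 CPM with overlapping groups. Its log2 fold change was 0.34 (edgeR, Benjamini-Hochberg adjusted p = 0.605). Of 15 NF-kB genes 14 were tested and all 14 had higher estimates, with a median of 0.53 and no gene without overlap. The mean log2 CPM of the NF-kB list was 5.633, 7.018 and 7.829 in the control libraries and 7.859, 8.139 and 6.433 in the knockdown libraries. These means overlapped between labels, with knockdown replicate 3 below control replicates 2 and 3.

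The mean log2 CPM of the interferon list was 3.395, 2.902 and 3.192 against 4.593, 4.187 and 5.158, without overlap. Of its 15 genes, 14 had higher estimates, and the median log2 fold change was 1.33. The groups of 12 genes did not overlap, all higher under the knockdown label, beside 7.94% of all tested genes in that direction. Because this list was also chosen with earlier results of these data known, its counts are a description and not a test of the list. Within the knockdown label, replicate 3 was highest for the interferon mean and lowest for FTH1. FTL ranked as the interferon means there, but its replicates 3 and 1 were nearly equal (3850 and 3841 CPM). Under the control label the orders differed, with FTL lowest in replicate 3 and the interferon mean lowest in replicate 2. Such orders rest on 3 libraries per label, too few to relate the levels to each other, and are a description only. The part of the interferon, NF-kB or NRF2 genes in the ferritin difference was not tested.

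**Figure D5:**
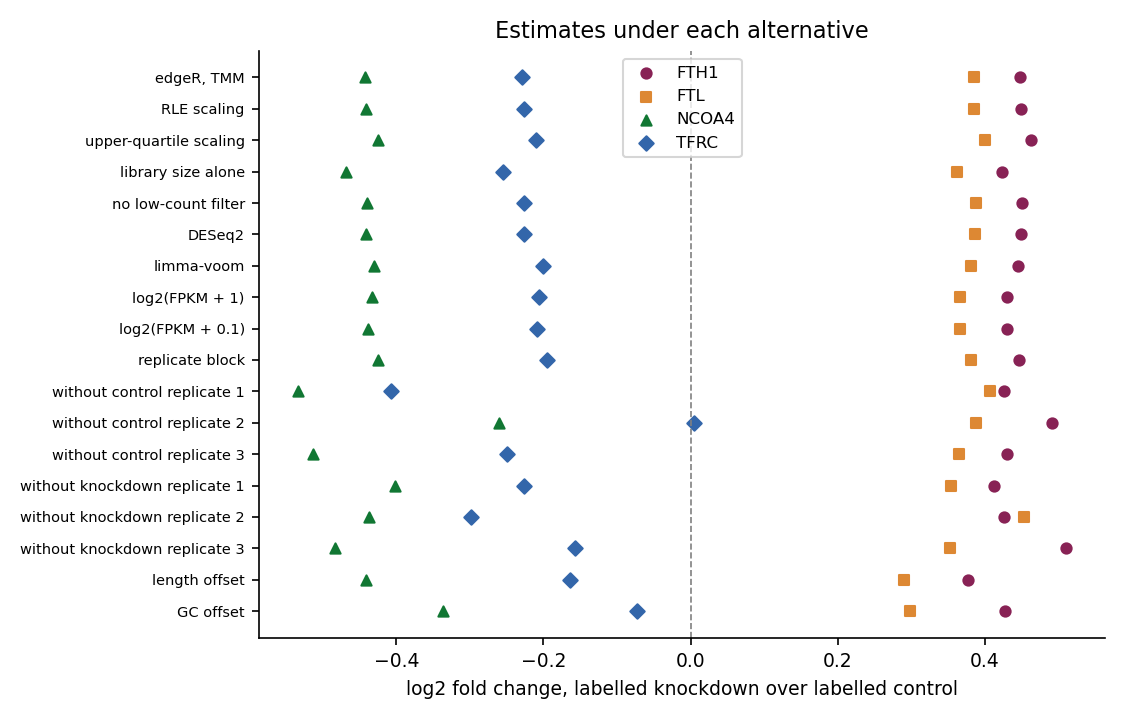
Log2 fold change of FTH1, FTL, TFRC and NCOA4 under the edgeR fit with TMM scaling and its alternatives, including each library left out in turn. FTH1 stays between 0.38 and 0.51 and FTL between 0.29 and 0.45, while TFRC runs from -0.41 to 0.004 and NCOA4 from -0.53 to -0.26.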

How the data were processed

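The authors deposited raw read counts per gene for 26899 genes, not normalised, and FPKM values for 26803 genes. For the 2556 genes compared, the deposited FPKM values were the same counts rescaled per gene and per library (largest SD 9.67e-05 on the log2 scale), so they were not treated as an independent measurement. Per the submitters' processing notes, bcl2fastq, TopHat2 and edgeR were used with GRCh38. The counting program, annotation release and strand setting are not given in sources used here.

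Counts were tested over all genes in R 4.3.3 with edgeR 4.0.16 (quasi-likelihood test), with TMM scaling, the default low-count filter (minimum count 10, total 15) and no covariate, two-sided, with Benjamini-Hochberg adjustment over 15299 genes at a threshold of 0.05. Depth was 24231267 to 34561675 reads. Alternatives were other scalings, no filter, DESeq2 1.42.0, limma 3.58.1 (voom, and log2 of FPKM plus 1 or 0.1), a replicate block, each library left out, and length and GC offsets chosen after seeing the data. Members and lists were chosen with earlier results of these data known. Named genes were the 10 members, ANXA2, the smallest p of each list, cell type markers, the 3 genes most like FTH1, FTL and TFRC, and ferritin pseudogenes with at least 10 reads. Positions, transcripts and the hairpins are from GENCODE release 44 on GRCh38. Within each group, every pair of libraries differed beyond sampling noise (chi-square of counts, 10.35 to 53.49 per degree of freedom); pairs across groups were not compared.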

Additional observations from a re-analysis of the deposited data

How the results depend on the processing

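Of 170 estimates of the 10 genes under 17 alternatives, 161 kept their direction and their side of the threshold, 5 changed sign and 4 newly passed the threshold. Without the low-count filter 165 genes of the table passed, with log2 fold changes of 0.45 for FTH1, 0.39 for FTL and -0.44 for NCOA4 among them. That fit used an infinite prior degrees of freedom in place of 5.234. DESeq2 passed 31 genes, FTH1 at 0.45 among them. With 1 library left out, 0 to 4 genes passed, 4 without knockdown replicate 2, and 505 (without knockdown replicate 1) to 1947 (without control replicate 1) were at an unadjusted p under 0.05, against 1251 with all libraries. The estimates that changed sign did so with 1 library left out. TFRC ran from -0.41 to 0.004 (without control replicate 2). ACO1 ran from -0.061 (without knockdown replicate 2) to 0.28 and was -0.007 without control replicate 1. PCBP2 ran from -0.057 (without knockdown replicate 3) to 0.093 and was -0.014 without control replicate 2. The cause was not tested.

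Replicate numbers did not pair the libraries: deviations of same-numbered libraries correlated at -0.062, 0.118 and -0.203. The highest correlations were across numbers, 0.217 for control replicate 1 with knockdown replicate 3 and 0.194 for control replicate 3 with knockdown replicate 2. Control replicate 1 and knockdown replicate 3 were each the lowest of their label for FTH1, TFRC, ACO1 and the NF-kB mean. That did not hold for the other members, and the cause was not tested. A replicate block gave 0 genes past the threshold and log2 fold changes of 0.45 for FTH1, 0.38 for FTL, -0.20 for TFRC and -0.42 for NCOA4, and not every library correlated best with its own number. The least abundant genes, HFE and IREB2, held 408 to 791 reads per library.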
